A study of Homo sapiens with 6 samples.

Results

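The genes of glucose transport and glycolysis were followed through the transcriptomes of HuCCT1/CD90+ and HuCCT1/CD90- cells. They were 43 genes, drawn from the 20811 genes of the expression table. They covered the facilitative glucose transporters, the enzymes from hexokinase to lactate dehydrogenase, the enzymes that set fructose-2,6-bisphosphate, the pyruvate dehydrogenase kinases, the lactate transporters, and the leading enzymes of gluconeogenesis and of the pentose phosphate pathway. They were taken by symbol alone, and all 43 were found in the table. HuCCT1 is an established human cell line of intrahepatic cholangiocarcinoma, the cancer of the bile ducts inside the liver. HuCCT1/CD90+ cells were transduced with a lentivirus carrying human THY1, the gene of the surface glycoprotein CD90, from a CMV promoter with GFP. HuCCT1/CD90- cells received the blank lentivirus (Lenti-CMV-GFP-2A-Puro-Blank), so both lines carried a viral insert, given at a multiplicity of infection of 40, and both were grown in RPMI with sodium pyruvate and 10% fetal bovine serum. There were 3 libraries of each line. The sources used here do not say whether they came from separate cultures, so the p-values measure the spread between these libraries, which may be technical. The line against the blank vector is a single comparison between a pair of transduced populations, so the effect of THY1 and a chance difference between the populations cannot be told apart.

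Cells take up glucose through transporters of the GLUT family, phosphorylate it with a hexokinase, and split it into pyruvate, which is either exported as lactate or passed to the mitochondria. Most steps have several isozymes encoded by separate genes, and tumour cells are known for favouring particular ones, such as GLUT1, hexokinase 2 and lactate dehydrogenase A. Hypoxia-inducible factors and MYC are known activators of many of these genes, and the pentose phosphate pathway drains glucose-6-phosphate into NADPH and ribose.

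Total RNA was read with the Ion AmpliSeq Transcriptome panel, which covers each gene over 1 short amplicon, and values were deposited as RPM (a gene's reads scaled to a common library total). Levels were not compared between genes, since amplicons differ in how well they amplify. The libraries held 8587634 to 10551516 reads, so that 3 reads, taken as the floor of detection, were worth 0.284 to 0.349 RPM. The targeted gene THY1 was read at 0, 0.107 and 0 RPM in HuCCT1/CD90- and at 46.6, 51.8 and 73.8 RPM in HuCCT1/CD90+ (limma adjusted p = 0.00045), and the viral insert may be read by the same amplicon. The 7 cholangiocyte markers, keratins and EPCAM among them, were all above the floor and summed to 8210 to 9314 RPM against 10974 to 11722 RPM (here and in what follows HuCCT1/CD90- against HuCCT1/CD90+), with 3 of 7 higher and 0 lower in HuCCT1/CD90+. Of the 7 hepatocyte markers, 5 (ALB, APOB, TTR, CYP3A4 and TF) were at or under the floor throughout, and the list summed to 3.69 to 5.89 RPM against 0.217 to 0.814 RPM. The 7 fibroblast markers summed to 41.8 to 65.3 RPM against 20.4 to 24.7 RPM, with 5 lower in HuCCT1/CD90+, COL1A2 and COL3A1 being at 0 in every HuCCT1/CD90+ library. With a replicate block 2 of those 5 fibroblast markers and 1 of the 2 lower hepatocyte markers stayed called, and LYZ, a leukocyte marker, did not. The 5 endothelial markers summed to 14.9 to 23.4 RPM against 1.29 to 1.86 RPM with 1 lower (CDH5), and the 6 leukocyte markers to 61.3 to 66.6 RPM against 84.7 to 102 RPM with 1 higher (CD68) and 1 lower (LYZ). These lists differed between the lines in both directions, and their part in the results that follow was not tested.

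A gene was called when the Benjamini-Hochberg adjusted p from limma over all 20811 genes was at most 0.05 and the fold change on the log2(RPM + 1) scale was at least 1.5. Of the 43 genes, 8 were lower in HuCCT1/CD90+ and 0 were higher. Of all 20811 genes, 7.49% were called lower and 7.59% higher. The lower genes were SLC2A6, HK1, PFKFB3, ALDOA, SLC16A3, FBP1, PGD and TKT, so that 1 gene fell at each of glucose transport, hexokinase, fructose-2,6-bisphosphate control, aldolase, lactate export and gluconeogenesis, and 2 fell in the pentose phosphate pathway. In bulk RNA, fewer cells expressing a gene and less of its RNA per cell cannot be told apart. With no minimum fold, 14 of the 43 genes had an unadjusted limma p under 0.05 in the lower direction and 2, LDHA and TALDO1, in the higher direction, beside 15.9% and 15.3% of all genes. On the recovered reads, edgeR called 11 lower and 0 higher (11.2% and 11.3% of all genes). After filterByExpr it called 12 and 0 (17.3% and 17.5% of the 12070 genes kept). DESeq2 called 11 and 0 (12.1% and 12.8% of the 17006 genes with any read). Each of these fits added SLC2A3, PFKFB2 and ENO3 to the 8, and edgeR after filterByExpr also SLC2A8. With the replicate number as a block in limma, 6 were lower and 0 higher (4.86% and 5.24% of all genes).

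A smaller share of the 43 genes than of the table was at the floor. At or under 3 reads in every library were 6 of the 43 genes (SLC2A2, SLC2A12, HK3, PKLR, LDHB and PCK1) and 6713 of the 20811 genes of the table (32.3%). When the test was limited to genes that averaged 1 RPM or more over the 6 libraries, 12 of 32 genes were called lower and 0 higher, beside 16.5% and 16.7% of the 12062 genes left. The 4 genes gained were SLC2A3, SLC2A8, PFKFB2 and ENO3. With each library centred on its median the same 12 were lower and 0 higher (9.87% and 8.92% of all genes). For the 43 genes the median log2 fold change was -0.013, beside 0 over all genes, and that of the 37 genes above the floor was -0.20, beside -0.0087 over the 14098 such genes of the table. In 15 of the 43 genes all 3 HuCCT1/CD90+ libraries lay below all 3 HuCCT1/CD90- libraries, and in 3 they lay above, beside 17.7% and 17.3% of the table. At the unadjusted p of 0.05 with a 1.5-fold change, the threshold of the study's methods, 12 genes were lower and 0 higher, beside 9.98% and 10.1% of the table.

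**Figure D1:**
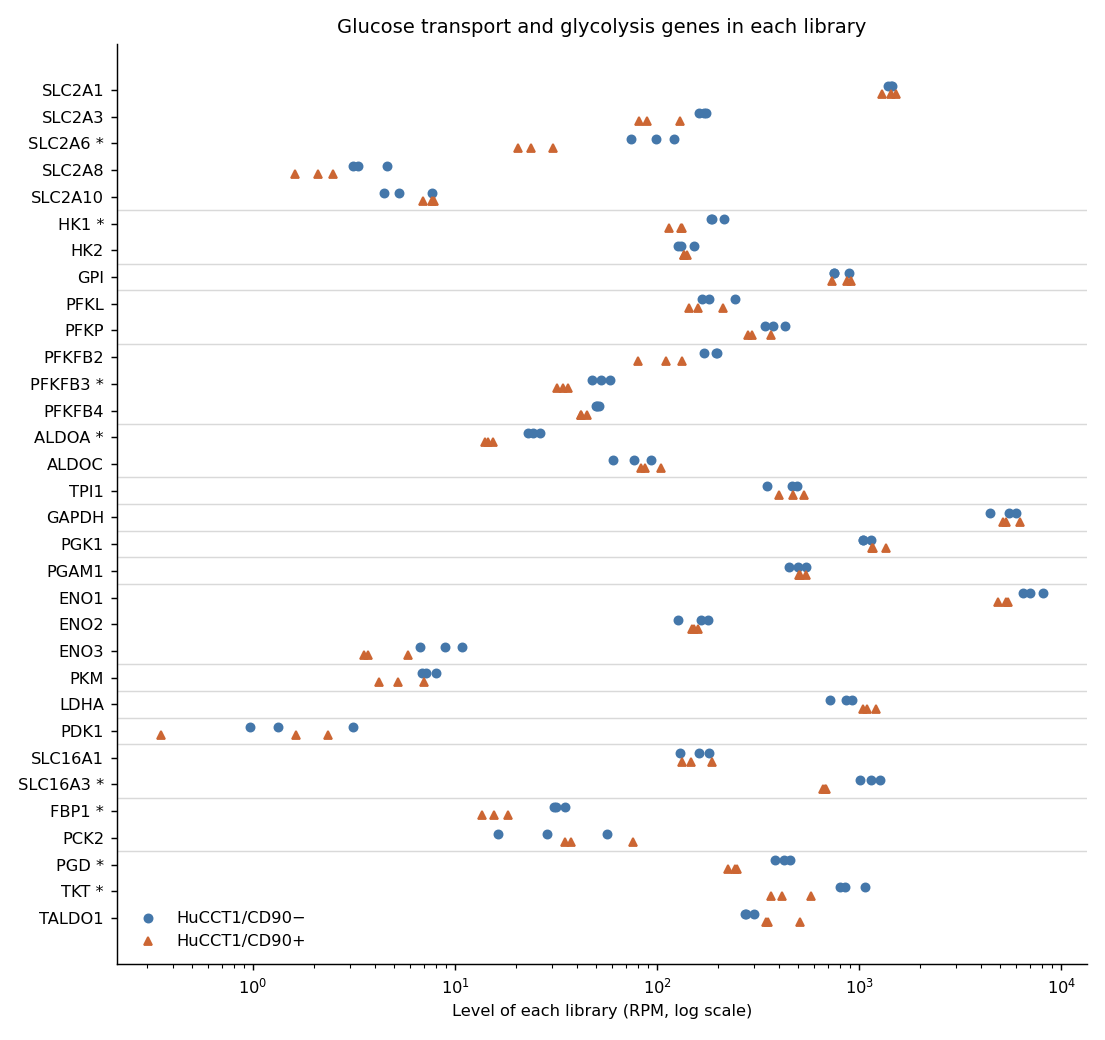
Level of each of the 32 genes that averaged 1 RPM or more, shown per library (RPM, log axis), with circles for the 3 HuCCT1/CD90- libraries, triangles for the 3 HuCCT1/CD90+ libraries, an asterisk for genes that passed the test and grey lines between pathway steps. In all 8 marked genes the triangles lie to the left of the circles without overlap.

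Among the 9 glucose transporters 1 fell, SLC2A6, which encodes the lysosomal transporter GLUT6 (chr9:133471095-133479137, minus strand). SLC2A6 was read at 74.2, 122 and 98.1 RPM in HuCCT1/CD90- and 20.5, 23.6 and 30.4 RPM in HuCCT1/CD90+. The lowest HuCCT1/CD90- library was well above the highest HuCCT1/CD90+ library. Its mean was 98.0 ± 23.8 RPM in HuCCT1/CD90- (SD, n = 3) and 24.8 ± 5.06 RPM in HuCCT1/CD90+ (SD, n = 3). SLC2A6 fell by 1.93 on the log2 scale (SE 0.25, limma adjusted p = 0.011), and this call held in each of the 18 alternative fits. SLC2A1, which encodes GLUT1, the main glucose importer of many epithelial tumours, was read at 1449, 1433 and 1395 RPM against 1443, 1289 and 1517 RPM. Its groups overlapped, and the log2 fold change of -0.01 had a 95% interval from -0.19 to 0.17. SLC2A3, which encodes the high-affinity neuronal transporter GLUT3, was at 174, 161 and 170 RPM against 81.4, 88.7 and 129 RPM. These groups did not overlap, yet SLC2A3 missed the adjusted threshold (log2 fold change -0.78, limma adjusted p = 0.063). HuCCT1/CD90+ replicate 3 lay above the other two HuCCT1/CD90+ libraries, and SLC2A3 passed with that library left out. SLC2A8 (GLUT8, an intracellular transporter) was at 3.10 to 4.60 RPM against 1.61 to 2.50 RPM and SLC2A10 (GLUT10) at 4.45 to 7.66 RPM against 6.97 to 7.81 RPM, neither passing the test. SLC2A4 and SLC2A5, the transporters GLUT4 and GLUT5 of muscle and of fructose uptake, had at most 8 reads in any library, SLC2A2 (the hepatocyte transporter GLUT2) had 0 reads in all 6 libraries, and SLC2A12 had at most 3.

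The hexokinases trap glucose in the cell by phosphorylation. HK1, the isozyme of most tissues (chr10:69269984-69401884, plus strand), was at 215, 187 and 184 RPM in HuCCT1/CD90- and 133, 114 and 131 RPM in HuCCT1/CD90+. All HuCCT1/CD90+ libraries were lower. The means were 195 ± 16.9 and 126 ± 10.4 RPM, and HK1 fell by 0.63 on the log2 scale (SE 0.09, limma adjusted p = 0.017), close to the 1.5-fold minimum. Without HuCCT1/CD90- replicate 2 or HuCCT1/CD90+ replicate 3 its adjusted p was 0.054 and 0.058, and without HuCCT1/CD90- replicate 1 or HuCCT1/CD90+ replicate 2 its log2 fold change was -0.56, under the minimum. HK2, the inducible isozyme of muscle and tumours, was at 152, 127 and 131 RPM against 135, 140 and 136 RPM. These values overlapped, with a 95% interval of the log2 fold change from -0.19 to 0.21. HK3 had 0 reads in all 6 libraries.

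Between glucose-6-phosphate and the triose phosphates, PFKFB3 and ALDOA fell. GPI, which converts glucose-6-phosphate to fructose-6-phosphate, was at 751, 890 and 751 RPM against 730, 912 and 867 RPM, with overlapping groups. The phosphofructokinases PFKL and PFKP, which commit the sugar to glycolysis, overlapped too, at 166 to 242 RPM against 143 to 211 RPM and at 343 to 429 RPM against 281 to 368 RPM, and PFKM had at most 8 reads. PFKFB3, which makes the phosphofructokinase activator fructose-2,6-bisphosphate (chr10:6144934-6254644, plus strand), was at 58.5, 52.8 and 47.5 RPM in HuCCT1/CD90- and 34.2, 36.2 and 31.9 RPM in HuCCT1/CD90+. The groups were apart, and PFKFB3 fell by 0.62 on the log2 scale (SE 0.09, limma adjusted p = 0.018). Its adjusted p rose to between 0.065 and 0.066 without HuCCT1/CD90- replicate 2, HuCCT1/CD90+ replicate 1 or HuCCT1/CD90+ replicate 3, and its fold was under 1.5 without HuCCT1/CD90- replicate 1 (log2 fold change -0.54) and with 5 RPM added in place of 1. PFKFB4, a bifunctional enzyme of the same family, was at 49.6, 50.5 and 51.6 RPM against 41.8, 42.2 and 45.0 RPM, a small difference without overlap (log2 fold change -0.23, limma adjusted p = 0.018) that stayed under the 1.5-fold minimum. PFKFB2, the family member known from heart, was at 171 to 198 RPM against 80.7 to 133 RPM without overlap. It missed the adjusted threshold in limma (log2 fold change -0.82, limma adjusted p = 0.065) and passed in edgeR and DESeq2 (DESeq2 adjusted p = 6.9e-05).

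Aldolase splits fructose-1,6-bisphosphate. ALDOA, its main muscle and tumour isozyme (chr16:30064164-30070457, plus strand), was at 26.3, 24.4 and 23.0 RPM in HuCCT1/CD90- and 14.5, 15.4 and 14.0 RPM in HuCCT1/CD90+, with little spread inside either group. ALDOA fell by 0.71 on the log2 scale (SE 0.06, limma adjusted p = 0.0041). ALDOC, the brain-type aldolase, was at 60.5, 92.8 and 76.9 RPM against 86.8, 105 and 82.8 RPM, overlapping and not called.

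In the steps from the triose phosphates to pyruvate limma called no gene, and edgeR and DESeq2 called ENO3 lower. TPI1 was at 350 to 494 RPM against 401 to 533 RPM and PGAM1, the mutase that moves the phosphate group, at 451 to 548 RPM against 506 to 545 RPM, both with overlap. GAPDH, the dehydrogenase that the study lists among its qPCR primers, was at 5946, 4447 and 5529 RPM against 5343, 5173 and 6256 RPM, with a 95% interval of the log2 fold change from -0.30 to 0.46. GENCODE names 62 pseudogenes after GAPDH, so reads of near-identical copies may be split or shared there. PGK1, which makes ATP from 1,3-bisphosphoglycerate, was at 1148, 1048 and 1038 RPM against 1160, 1357 and 1165 RPM, slightly above without overlap (log2 fold change 0.18, limma adjusted p = 0.23). ENO1, the widely expressed enolase, was at 8149, 6433 and 7005 RPM in HuCCT1/CD90- and 4880, 5427 and 5343 RPM in HuCCT1/CD90+. ENO1 libraries did not overlap, and its log2 fold change of -0.46 (SE 0.10, limma adjusted p = 0.0498) missed the 1.5-fold minimum, with an adjusted p of 0.17 in the replicate block. ENO2, the neuronal enolase, was at 127 to 179 RPM against 149 to 160 RPM, and ENO3, the muscle enolase, at 6.73 to 10.9 RPM against 3.54 to 5.82 RPM (log2 fold change -0.88, limma adjusted p = 0.082, DESeq2 adjusted p = 0.0061). PKM, pyruvate kinase of most tissues and tumours, was at 7.20, 8.03 and 6.89 RPM against 4.18, 6.99 and 5.21 RPM, overlapping and not called, and which of its splice forms the amplicon covers was not given in the sources used here. PKLR, the liver and red cell pyruvate kinase, had at most 1 read.

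At the fates of pyruvate, SLC16A3 fell and the other genes were not called. LDHA, the lactate dehydrogenase subunit known for making lactate in tumours, was at 856, 713 and 919 RPM in HuCCT1/CD90- and 1044, 1091 and 1206 RPM in HuCCT1/CD90+. Its libraries did not overlap, and its log2 fold change of 0.43 (SE 0.12) stayed under the 1.5-fold minimum (limma adjusted p = 0.078, DESeq2 adjusted p = 0.0086). LDHB, the other common subunit, had 0 reads in all 6 libraries, which allows up to 0.284 to 0.349 RPM in a library over its amplicon. Whether that amplicon reads LDHB in these cells was not tested. SLC16A3, which encodes the lactate exporter MCT4 (chr17:82228397-82261129, plus strand), was at 1009, 1263 and 1144 RPM against 673, 660 and 686 RPM. The 3 HuCCT1/CD90+ libraries were tightly grouped far below the others. With means of 1139 ± 127 and 673 ± 12.9 RPM, SLC16A3 fell by 0.75 on the log2 scale (SE 0.09, limma adjusted p = 0.0095, and 0.054 with a replicate block). SLC16A1, which encodes the lactate carrier MCT1, was at 180, 130 and 160 RPM against 187, 133 and 146 RPM with a 95% interval of the log2 fold change from -0.52 to 0.49. The pyruvate dehydrogenase kinases PDK1, PDK3 and PDK4, which hold pyruvate back from the mitochondria, were read at 0.321 to 3.10 RPM in any library, and none was called.

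In the pathways around glycolysis 3 enzymes fell. FBP1, which reverses the phosphofructokinase step in gluconeogenesis (chr9:94603133-94640249, minus strand), was at 35.0, 30.9 and 31.5 RPM in HuCCT1/CD90- and 13.6, 18.3 and 15.6 RPM in HuCCT1/CD90+. All HuCCT1/CD90+ libraries were lower. FBP1 had a log2 fold change of -0.998 (SE 0.12, limma adjusted p = 0.0097, and 0.070 with a replicate block). PCK2, mitochondrial PEP carboxykinase, ranged from 16.3 to 56.5 RPM against 34.9 to 75.8 RPM, its replicate 2 being the highest in both lines, and PCK1 had at most 1 read. PGD, the 6-phosphogluconate dehydrogenase of the oxidative pentose phosphate branch (chr1:10398592-10420144, plus strand), was at 455, 424 and 381 RPM against 242, 248 and 225 RPM. PGD fell by 0.81 on the log2 scale without overlap (SE 0.08, limma adjusted p = 0.0060). TKT, transketolase of the non-oxidative branch (chr3:53224707-53256052, minus strand), was at 800, 1072 and 850 RPM against 365, 575 and 417 RPM. Replicate 2 was the highest TKT library of both lines, and no HuCCT1/CD90+ library reached the lowest HuCCT1/CD90- one. TKT fell by 1.02 on the log2 scale (SE 0.22, limma adjusted p = 0.044), and its adjusted p was between 0.091 and 0.14 when any 1 library other than HuCCT1/CD90+ replicate 2 was left out (HuCCT1/CD90- replicates 1, 2 and 3 and HuCCT1/CD90+ replicates 1 and 3), and 0.051 with trend and robust settings. TALDO1, the transaldolase of the same branch, stood on the other side, at 301, 273 and 276 RPM against 347, 510 and 354 RPM. Its log2 fold change of 0.49 was under the 1.5-fold minimum and not called (limma adjusted p = 0.15, DESeq2 adjusted p = 0.0087).

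**Figure D2:**
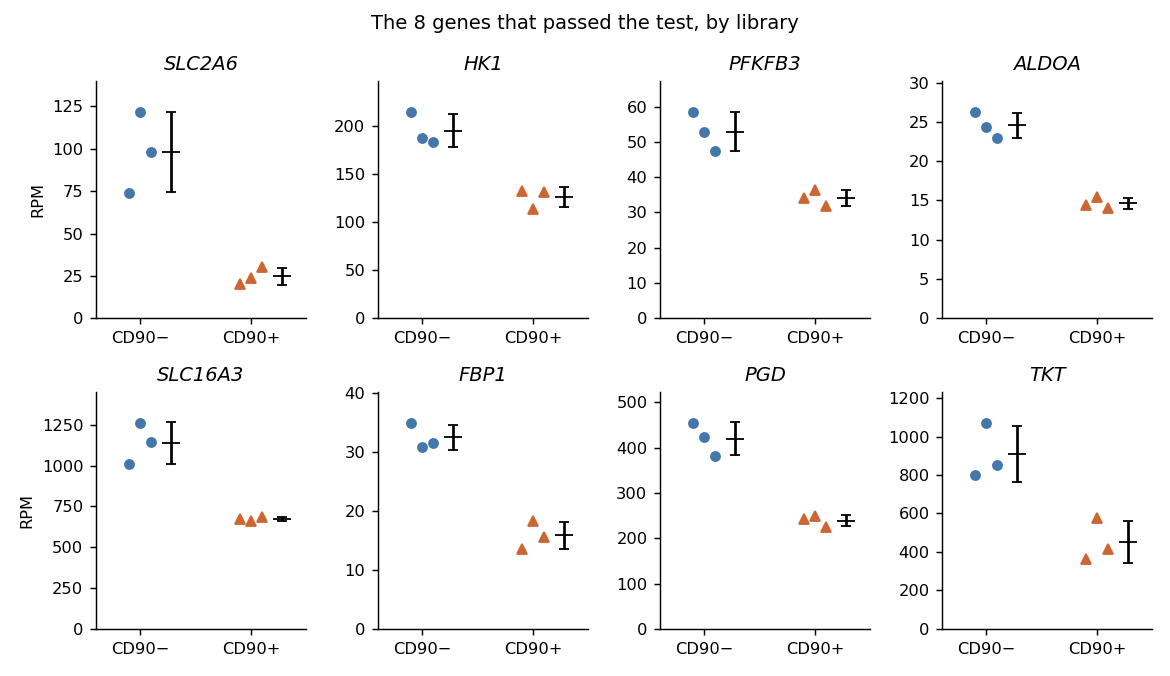
RPM of the 8 genes that passed the test, 1 panel each, with a point per library and a bar for the mean ± SD of the 3 libraries of each line (axes start at 0). HuCCT1/CD90+ libraries sit below HuCCT1/CD90- libraries in each panel, by the widest ratio in SLC2A6 (98.0 against 24.8 RPM).

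Several of these genes lay in stretches of the genome whose other genes differed in the same direction. Each gene was set beside the median log2 fold change of its neighbours, the 50 closest genes on its chromosome that averaged 10 RPM or more. It was -0.60 around both PGD and ENO1, which lie close together on the short arm of chromosome 1, -0.32 around ALDOA, and -0.22 around PFKFB3 and TKT. After subtraction PGD was at -0.21 (limma adjusted p = 0.19), ENO1 at 0.14 (limma adjusted p = 0.50), and PFKFB3 at -0.40 (limma adjusted p = 0.059). ALDOA was at -0.41 after subtraction, past the adjusted threshold (limma adjusted p = 0.020) and under the 1.5-fold minimum, and TKT at -0.80 (limma adjusted p = 0.088). The medians around SLC2A6, HK1, SLC16A3 and FBP1 were -0.18, -0.0049, -0.025 and -0.019, and these 4 genes stayed called. With SLC2A3, which passed after subtraction, 5 genes were called lower and 0 higher in this fit (6.52% and 6.32% of all genes). LDHA stood among genes that were higher (median 0.37), and so did TALDO1 (0.36).

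**Figure D3:**
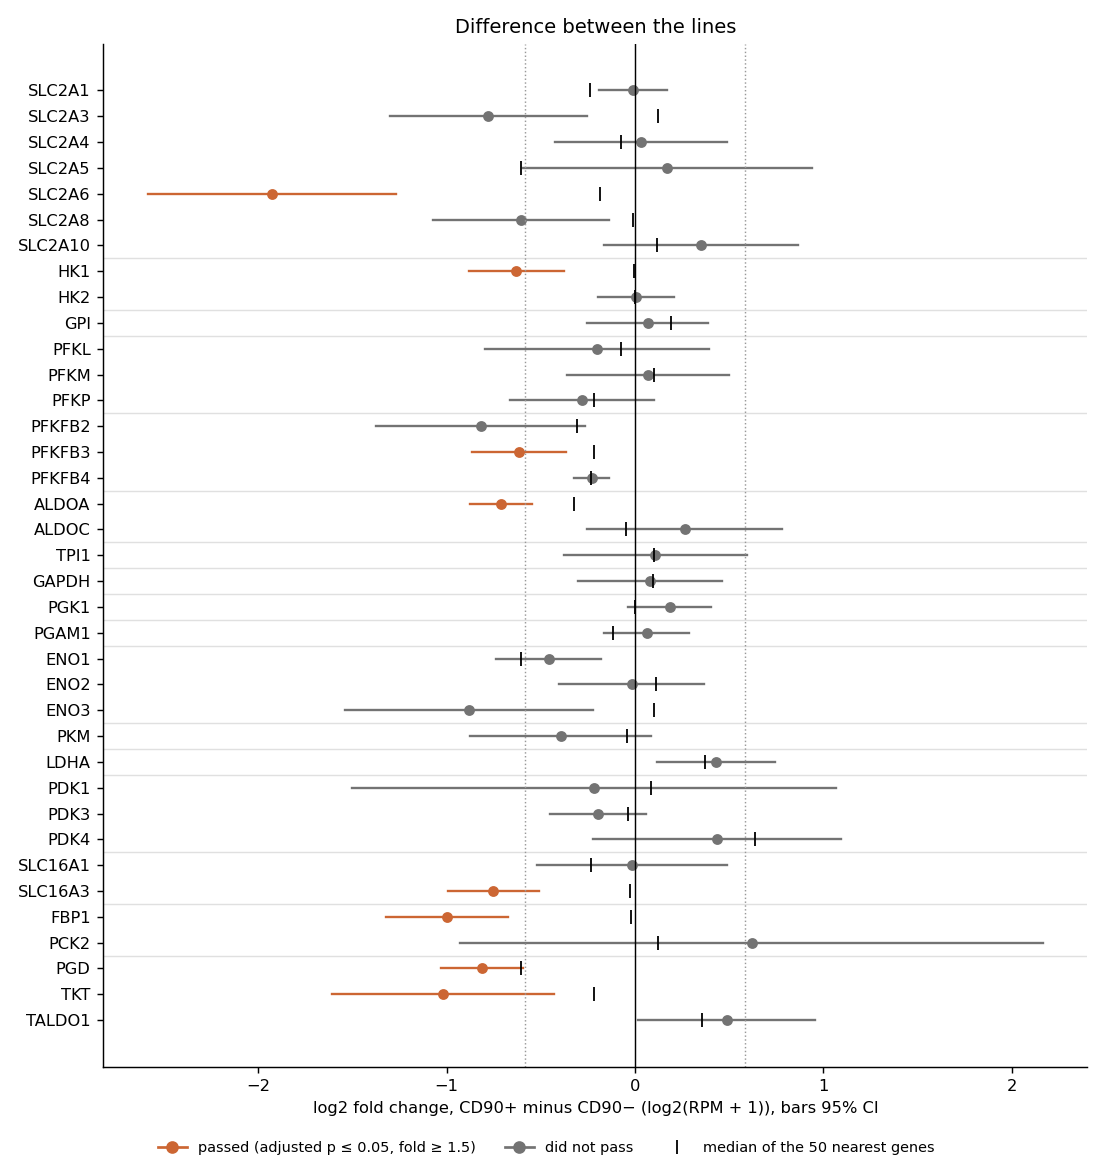
Log2 fold change (HuCCT1/CD90+ minus HuCCT1/CD90-, log2(RPM + 1) scale) with its 95% confidence interval for the 37 genes above the floor, with dotted lines at the 1.5-fold minimum, orange for genes that passed the test and a black tick for the median of its 50 neighbours. PGD and ENO1 share a tick at -0.60, whereas the tick of HK1, SLC16A3 and FBP1 is near 0.

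The balance between isozymes of a step was compared as the log2 ratio of a pair, from RPM + 1 within each library. Each difference between the lines equals the log2 fold change of the first gene minus that of the second. It restates those values and is not evidence separate from them. Ratios were formed for 10 pairs, and 9 were tested, since LDHB was at 0 reads. The HK2 to HK1 log2 ratio was -0.49, -0.55 and -0.48 in HuCCT1/CD90- and 0.029, 0.30 and 0.056 in HuCCT1/CD90+, a difference of 0.64. The SLC2A3 to SLC2A1 ratio differed by -0.77 and that of SLC16A3 to SLC16A1, the MCT4 to MCT1 balance, by -0.74. The ALDOC to ALDOA ratio differed by 0.97, PFKFB4 to PFKFB3 by 0.39, ENO2 to ENO1 by 0.44 and PDK4 to PDK1 by 0.65. The ENO2 to ENO1 libraries of the lines nearly touched (-5.16 against -5.15), and the difference was 0.20 without HuCCT1/CD90- replicate 1 and 0.14 after quantile normalization (exact permutation p = 0.7). PDK4 and PDK1 had 3 to 32 reads a library, and their difference was 0.31 without HuCCT1/CD90- replicate 3, 0.21 with 5 RPM added and 1.36 with 0.1 RPM added. In these 7 pairs the lines did not overlap, which is an exact two-sided permutation p of 0.1 (0.13 adjusted over the 9 ratios), the smallest p possible with 3 libraries a line. The PFKM to PFKL and PFKP to PFKL ratios overlapped, with differences of 0.27 and -0.08 (exact permutation p = 0.3 and 0.4).

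**Figure D4:**
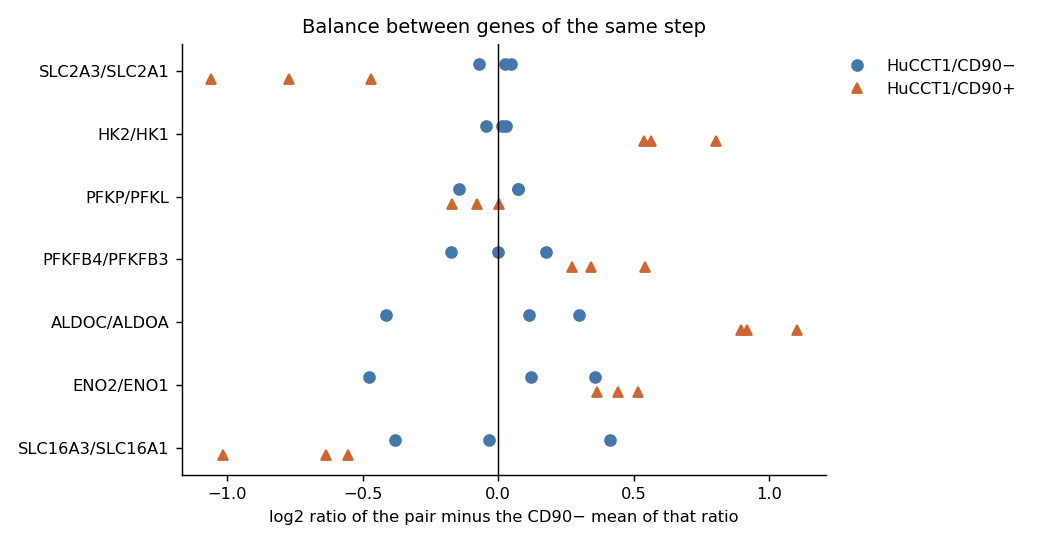
Log2 ratio of isozyme pairs within each library, drawn as the difference from the HuCCT1/CD90- mean of that ratio, for the 7 pairs in which both genes had at least 10 RPM. Triangles (HuCCT1/CD90+) do not overlap circles (HuCCT1/CD90-) in all pairs drawn but PFKP/PFKL, to the left for SLC2A3/SLC2A1 and SLC16A3/SLC16A1 and to the right for the others, narrowly for ENO2/ENO1.

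Promoter sequences were searched for the letters that the known regulators of these genes read. Hypoxia-inducible factors bind the core ACGTG and its variant with a first G, spelled GCGTG. MYC and the carbohydrate response factor are known to bind the E-box CACGTG, whose last 5 letters are the first of these cores. RefSeq windows (GRCh38.p14) of 250 bases before the RefSeq start were matched for 38 of the 43 genes and read on both strands. The start is that of 1 RefSeq transcript, and 33 of the 38 windows reach into the gene as GENCODE draws it, 19 of them wholly, since a gene can have earlier starts. For PFKP no GENCODE transcript start was matched to the window. ACGTG was found in 12 of 38 (31.6%), beside 18.5% of all 35116 RefSeq windows. GCGTG was in 12 of 38 (31.6%), beside 32.2%, and CACGTG in 4 of 38 (10.5%), beside 6.34%. The 35116 windows were not limited to the genes of the expression table or to 1 window a gene. Of the 8 genes that fell, 5 held at least 1 of the hypoxia-inducible factor cores (62.5%), beside 19 of the 38 genes (50%) and 43.2% of all promoters. ACGTG alone was in 2 of the 8 (25%), and 0 held the E-box. A match is a description of these letters and not a site shown to be bound. Windows are shown for 3 genes that fell and hold the second core, and for LDHA, which did not fall and holds the E-box, each 5′ to 3′ on the strand of its gene, with both cores in capitals on either strand. They were chosen after the values were seen. SLC2A6 is at chr9:133479100-133479349 (minus strand), PFKFB3 at chr10:6144671-6144920, PGD at chr1:10398814-10399063 and LDHA at chr11:18394313-18394562 (plus strands). Of the 250 bases, 38, 0, 250 and 175 lie inside the GENCODE gene in that order.
SLC2A6: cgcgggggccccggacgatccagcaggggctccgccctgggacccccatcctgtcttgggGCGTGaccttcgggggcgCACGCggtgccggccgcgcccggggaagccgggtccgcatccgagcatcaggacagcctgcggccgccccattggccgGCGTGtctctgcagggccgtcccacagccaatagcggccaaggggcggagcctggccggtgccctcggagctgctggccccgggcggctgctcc
PFKFB3: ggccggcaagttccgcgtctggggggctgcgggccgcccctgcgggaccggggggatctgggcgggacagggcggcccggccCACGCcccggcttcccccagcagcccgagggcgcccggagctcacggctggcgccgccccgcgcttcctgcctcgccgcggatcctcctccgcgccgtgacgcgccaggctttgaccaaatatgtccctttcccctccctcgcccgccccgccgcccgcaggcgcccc
PGD: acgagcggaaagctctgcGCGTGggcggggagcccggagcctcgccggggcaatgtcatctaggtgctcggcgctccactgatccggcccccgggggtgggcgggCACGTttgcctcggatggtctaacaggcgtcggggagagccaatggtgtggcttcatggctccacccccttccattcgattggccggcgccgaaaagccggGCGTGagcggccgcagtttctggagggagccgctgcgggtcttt
LDHA: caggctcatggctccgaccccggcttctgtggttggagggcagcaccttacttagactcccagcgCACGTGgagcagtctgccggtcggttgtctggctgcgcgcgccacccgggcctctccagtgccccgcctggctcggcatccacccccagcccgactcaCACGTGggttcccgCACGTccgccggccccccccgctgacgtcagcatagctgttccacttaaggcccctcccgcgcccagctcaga

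Genes next to glycolysis were called in both directions. Among 25 other transporters and glycolytic enzymes, 15 were at the floor in both lines. Limma called 1 higher and 1 lower (4% each), beside 7.59% and 7.49% of all genes. LDHAL6B, a testis-type lactate dehydrogenase, rose from 3.87 ± 1.05 to 8.79 ± 0.87 RPM (log2 fold change 1.03, limma adjusted p = 0.031), and SLC2A13, a proton and myo-inositol cotransporter, fell from 7.56 ± 0.43 to 2.32 ± 0.93 RPM (log2 fold change -1.40, limma adjusted p = 0.018, and 0.081 with a replicate block). Each of them lost its call in single leave-outs: LDHAL6B without any 1 library other than HuCCT1/CD90- replicate 2, and SLC2A13 without any HuCCT1/CD90- library or without HuCCT1/CD90+ replicate 2. With 5 RPM added in place of 1 their log2 fold changes were 0.64 and -0.79. In this list edgeR called 3 higher and 1 lower, beside 11.3% and 11.2% of all genes. After filterByExpr it called 2 and 1 (17.5% and 17.3% of the 12070 genes kept). DESeq2 also called 2 and 1 (12.8% and 12.1% of the 17006 genes with any read). Of 13 other genes of gluconeogenesis and the pentose phosphate pathway 0 were called by limma. In the lower direction 4 had an unadjusted limma p under 0.05, beside 15.9% of all genes. Both edgeR and DESeq2 called 2 lower, beside 11.2% of all genes and 12.1% of the genes with any read.

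Of 9 genes of pyruvate entry into mitochondria, 1 rose and 1 fell in limma, beside 7.59% and 7.49% of all genes. MPC1, a subunit of the mitochondrial pyruvate carrier, was at 8.53, 10.8 and 8.93 RPM against 25.1, 19.0 and 24.7 RPM. The MPC1 libraries were far apart, and it rose by 1.20 on the log2 scale (SE 0.15, limma adjusted p = 0.010, and 0.080 with a replicate block). PDPR, a regulatory subunit of pyruvate dehydrogenase phosphatase, fell from 45.5 ± 4.60 to 25.7 ± 5.39 RPM (limma adjusted p = 0.041, and 0.057 with a replicate block), and was no longer called without any 1 library other than HuCCT1/CD90+ replicate 3 or after subtraction of its neighbours (log2 fold change -0.49, limma adjusted p = 0.16). In this list edgeR and DESeq2 called 2 higher and 1 lower. The shares of all genes in edgeR were 11.3% and 11.2%, and of genes with any read in DESeq2 12.8% and 12.1%. PDP1, the tenth gene of that list, was not analysed here.

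Among 17 genes of side branches from glycolysis, limma called 3 higher and 2 lower, beside 7.59% and 7.49% of all genes. edgeR called 3 and 5 (11.3% and 11.2% of all genes), and DESeq2 3 and 4 (12.8% and 12.1% of genes with any read). AKR1B1, aldose reductase, which turns glucose into sorbitol, was at 3.89, 3.53 and 4.66 RPM in HuCCT1/CD90- and 35.7, 21.5 and 27.5 RPM in HuCCT1/CD90+. AKR1B1 rose by 2.52 on the log2 scale (SE 0.21, limma adjusted p = 0.0038), and KHK, the ketohexokinase that phosphorylates fructose, rose from 6.41 ± 0.44 to 13.8 ± 1.43 RPM (log2 fold change 1.00, limma adjusted p = 0.0043). GFPT2, which feeds fructose-6-phosphate into hexosamines, fell from 29.3 ± 11.6 to 5.15 ± 1.69 RPM (log2 fold change -2.26, limma adjusted p = 0.029, and 0.12 with a replicate block), and its adjusted p passed 0.05 when any 1 library other than HuCCT1/CD90- replicate 1 was left out. GPD1L, a glycerol-3-phosphate dehydrogenase relative, fell from 23.9 ± 2.69 to 14.1 ± 0.91 RPM (log2 fold change -0.72, limma adjusted p = 0.013, and 0.086 with a replicate block), and its adjusted p was 0.053 without HuCCT1/CD90+ replicate 1.

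Of 16 regulators of glycolytic genes, 5 were lower and 2 higher in limma (7.49% and 7.59% of all genes), and 3 and 1 with a replicate block (4.86% and 5.24%). edgeR called 7 lower and 2 higher (11.2% and 11.3% of all genes), and after filterByExpr 7 and 1 (17.3% and 17.5% of the 12070 genes kept). DESeq2 called 7 lower and 1 higher (12.1% and 12.8% of the 17006 genes with any read). HIF1A, the oxygen-regulated subunit of hypoxia-inducible factor, was at 502, 567 and 628 RPM in HuCCT1/CD90- and 411, 328 and 324 RPM in HuCCT1/CD90+. HIF1A fell by 0.68 on the log2 scale (SE 0.14, limma adjusted p = 0.037, and 0.15 with a replicate block), and was not called without any 1 library other than HuCCT1/CD90+ replicate 1. EPAS1, which encodes the related subunit HIF-2α, fell from 158 ± 19.6 to 61.7 ± 3.72 RPM (log2 fold change -1.34, limma adjusted p = 0.0033). TXNIP, an arrestin-like protein that removes glucose transporters from the cell surface and is induced by glucose, was at 307, 446 and 351 RPM against 113, 155 and 95.6 RPM. TXNIP fell by 1.61 on the log2 scale (SE 0.24, limma adjusted p = 0.017), with an adjusted p of 0.053 to 0.067 without HuCCT1/CD90- replicate 2 or 3 or HuCCT1/CD90+ replicate 1 or 3. Its relative ARRDC4 fell from 26.5 ± 0.29 to 9.78 ± 0.89 RPM (log2 fold change -1.35, limma adjusted p = 0.0010). PPARGC1A, a coactivator of mitochondrial and gluconeogenic genes, fell from 5.42 ± 1.93 to 0.955 ± 0.13 RPM (log2 fold change -1.68, limma adjusted p = 0.014, 0.053 with a replicate block, and 0.053 to 0.061 without HuCCT1/CD90+ replicate 1, 2 or 3). At this low level its log2 fold change was -0.79 with 5 RPM added in place of 1, -2.34 with 0.1 RPM added and -2.49 in DESeq2. TIGAR, a fructose-2,6-bisphosphatase, rose from 2.38 ± 0.12 to 6.07 ± 1.04 RPM (log2 fold change 1.06, limma adjusted p = 0.0075) and is named here after its values were seen. MYC was at 98.2, 122 and 90.4 RPM against 138, 180 and 145 RPM without overlap and was not called. Its log2 fold change of 0.57 was under the 1.5-fold minimum (limma adjusted p = 0.086, DESeq2 adjusted p = 0.0025). Among 16 other hypoxia-induced genes limma called 1 higher and 1 lower (7.59% and 7.49% of all genes). edgeR, with and without filterByExpr, called 6 higher and 4 lower (11.3% and 11.2% of all genes without it). DESeq2 called 6 higher and 3 lower (12.8% and 12.1% of the 17006 genes with any read). In 7 of the 16 genes the HuCCT1/CD90+ libraries lay above the others without overlap and in 4 below (17.3% and 17.7% of the table). CA9, the hypoxia-induced carbonic anhydrase, fell from 50.5 ± 7.86 to 12.1 ± 1.60 RPM (log2 fold change -1.98, limma adjusted p = 0.0031), and ERO1A, an oxidase of the endoplasmic reticulum, rose from 305 ± 32.9 to 534 ± 49.7 RPM (log2 fold change 0.81, limma adjusted p = 0.015), with an adjusted p of 0.052 to 0.063 without HuCCT1/CD90- replicate 1 or HuCCT1/CD90+ replicate 1 or 3 and a log2 fold change of 0.58, under the 1.5-fold minimum, after subtraction of its neighbours.

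**Figure D5:**
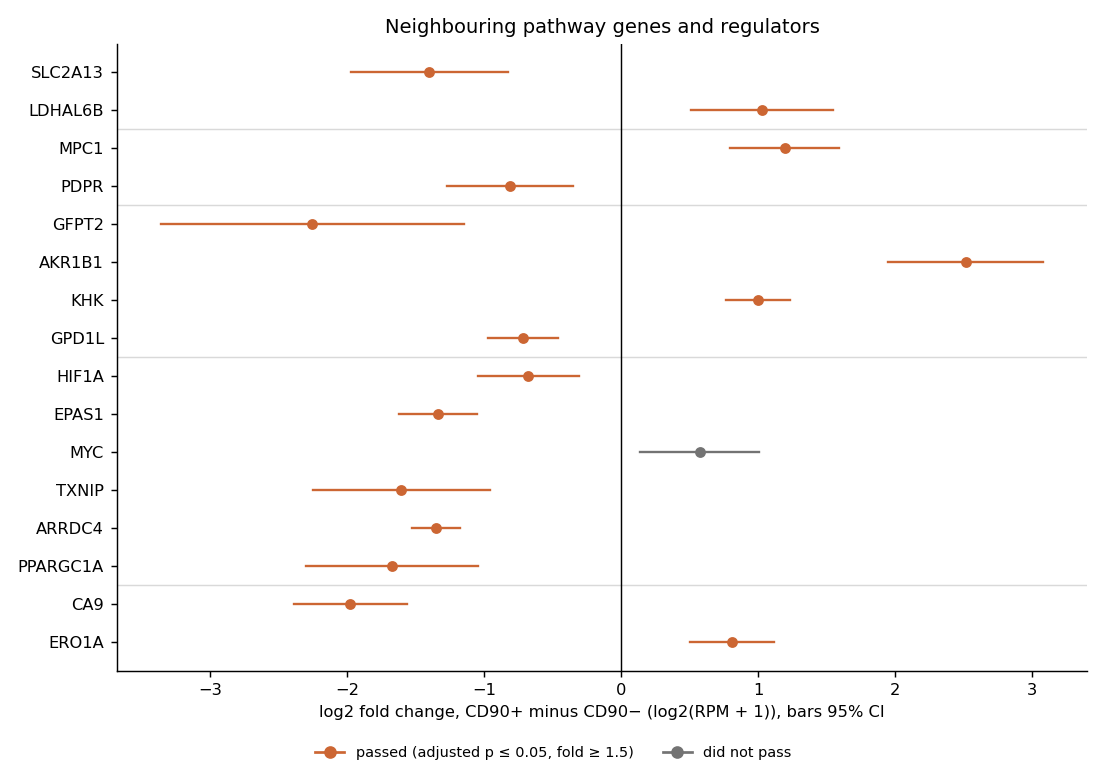
Log2 fold change (HuCCT1/CD90+ minus HuCCT1/CD90-, log2(RPM + 1) scale) with 95% confidence interval for 16 named genes next to glycolysis, grouped as other glycolysis genes, pyruvate entry, side branches, regulators and hypoxia-induced genes, in orange where the test was passed. GFPT2, CA9, PPARGC1A, TXNIP, SLC2A13, ARRDC4 and EPAS1 lie left of -1 and AKR1B1 right of 2.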

How the data were processed

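RNA of 6 libraries was reverse-transcribed, amplified with the Ion AmpliSeq panel and run on the S5 Prime sequencer, and reads were counted with the plugin ampliSeqRNA. The authors deposited RPM values for 20811 genes, which were tested here. Submitters' notes name hg19 and the Transcriptome Analysis Console, and amplicon positions were not given in the sources used here. TIGAR and ERO1A stand in the table under older symbols. Gene positions are GRCh38 (GENCODE 29). Whole reads were recovered for 100% of values (within 0.001 RPM of a whole multiple). Chi-square per degree of freedom between libraries of a line was 9.18 to 25.2, so none was a copy.

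Values were taken to log2(RPM + 1) and fitted with limma 3.58.1 under R 4.3.3 (lmFit, eBayes, no block, no filter), as the study's methods name limma eBayes and a 1.5-fold change, with Benjamini-Hochberg adjustment over all genes. Adjusted p-values are limma's unless another tool is named. Means are given ± SD over 3 libraries. Same-numbered libraries deviated together (r = 0.21, 0.32 and 0.18). On this ground alone the numbers were treated as pairs in the replicate-block alternatives, and the main fit was unpaired. Other fits were offsets of 0.1 and 5 RPM, means of at least 1 or 10 RPM, quantile normalization, median centring, trend and robust eBayes, a replicate block, each library left out, subtraction of neighbours, edgeR 4.0.16 (TMM, with and without filterByExpr) and DESeq2 1.42.0 on recovered reads, a 2-fold minimum and none. Scripts were tested on simulated data.

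The genes and lists were chosen with earlier results of these data known. Named in full were genes that were called with at least 1 RPM in a line, leading isozymes, and from each other list up to 4 called genes with the greatest change, plus HIF1A, MYC and TXNIP. Some genes covered by this rule and the lists are not reported here by name. Reads carry no molecular identifiers, and the floors hold for counting error alone.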

Additional observations from a re-analysis of the deposited data

How the results depend on the processing

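The 8 lower genes became 5 to 7 when 1 library was left out (5 without HuCCT1/CD90- replicate 1 and 5 without HuCCT1/CD90- replicate 2, beside 4.36% to 5.96% of all genes over these fits), 5 when the median of the neighbouring genes was subtracted, 6 with a replicate block and 2 with a 2-fold minimum (4.43% of all genes), and 0 higher genes were called in any alternative. At the unadjusted threshold a 2-fold minimum left 2 genes, beside 4.88% of the table. The paired fit removed SLC16A3 and FBP1 from the 8, trend and robust settings removed TKT, and 8 became 12 among genes averaging 1 RPM or more, with median centring and with edgeR after filterByExpr, and 11 with unfiltered edgeR and DESeq2, each holding all 8. The median log2 fold change of the genes was -0.22 among genes averaging 1 RPM or more, -0.20 at 10 RPM or more, -0.26 after filterByExpr, where fewer genes were tested, and -0.042 to 0 with 1 library left out.

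Among the named genes, those that changed sign were not called. The log2 fold change of SLC2A1 was 0.033 after quantile normalization, 0.23 after neighbour subtraction and -0.064 to 0.054 with 1 library left out. HK2 was at -0.033 after quantile normalization, -0.019 after centring, -0.00036 in edgeR, -8.5e-05 in edgeR after filterByExpr and -0.042 to 0.084 with 1 library left out. GAPDH was at -0.017 and ENO1 at 0.14 after neighbour subtraction, and GAPDH at -0.042 to 0.17 with 1 library left out. The cause of these changes was not tested. No isozyme ratio changed sign in its 10 alternatives, but ENO2 to ENO1 ranged from 0.14 to 0.62 and PDK4 to PDK1 from 0.21 to 1.36. Neighbour subtraction was not among these 10. After it, the log2 fold change of ENO2 (-0.13) lay below that of ENO1 (0.14), and that of PFKL (-0.13) below that of PFKP (-0.062). Both orders are the reverse of the ratio differences given above. Within same-numbered pairs (replicate block) the smallest possible exact p was 0.25.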
